A study of Mus musculus with 21 samples.

Results

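The comparison described here set CD11c-negative macrophages of obese mice against those of lean mice. These are adipose tissue macrophages sorted as positive for MHC class II and negative for CD11c, the integrin encoded by Itgax. The 6 libraries, 3 from each diet, are part of 21 from the same study. All came from male C57BL/6 mice. The obese group had a high fat diet (HFD) for 16 weeks and the lean group a normal diet (ND) for the same time. Collagenase released the cells from adipose tissue and flow cytometry sorted them. The labels do not say which fat depot was taken, how many mice made up a library, or whether replicates came from separate mice. The p-values therefore measure spread between libraries, which the fit estimated over all 21 and not over these 6 alone. Every gene that passed a filter on low counts was tested, 22935 of the 54532 in the deposited table.

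Macrophages of adipose tissue take up dying adipocytes, free lipid and debris, degrade them in lysosomes and pass on fatty acids and sterols. In lean fat a large share of them lies along blood vessels and carries scavenger receptors and lectins such as CD163, LYVE1, TIM4 and the CD209 family. In obesity macrophages gather around dying adipocytes. Lipid-laden cells there are known for a set of genes around the lipid receptor gene Trem2, which includes Gpnmb, Cd9, Lpl and Fabp5. Bulk RNA of a sorted gate cannot tell fewer cells of a type from less RNA per cell, and this holds for every value below.

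Library totals were 22398499 to 25914583 counts in lean and 26648301 to 31056402 in obese libraries. Despite their lower totals the lean libraries held more genes with at least 1 count. At an equal depth of 22398499 counts, 28235 to 32840 genes had a count in lean libraries, and the obese ones had 26133 to 26362 such genes. Counts on 1733 olfactory and vomeronasal receptor genes, which macrophages are not known to use, summed to 126, 69.7 and 135 CPM (counts scaled to library size) in lean and 32.9, 29.9 and 27.7 CPM in obese libraries. The sort genes were read first. The MHC class II chain gene H2-Ab1 had 2078, 2458 and 1758 CPM in the lean libraries and 2756, 2200 and 2789 CPM in the obese ones and did not pass the test. In MHCII-low macrophages its means were 233 and 346 CPM. Itgax stood at 19.3, 16.4 and 14.5 CPM in the lean libraries and 59.4, 97.2 and 98.3 CPM in the obese ones and thus rose within the CD11c-negative gate (log2 fold change 2.34, SE 0.28, adjusted p = 1.06e-05). This was below the mean of 586 CPM in the CD11c-positive macrophages of obese mice.

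Of the 22935 genes, 7422 (32.4%) passed an adjusted p of 0.05, 3842 higher (16.8%) and 3580 lower (15.6%) in obese mice. The libraries of the 2 diets did not overlap in 7179 of these calls, and in 51.2% of all tested genes. The direction differed between expression levels. Of genes whose higher group reached 10 CPM, 48.7% passed, and 32.3% rose and 16.4% fell. A gene list below with shares near these moved like genes of that level in general. The list counts take in all tested members, also those under 10 CPM. Among genes under 10 CPM the shares were 7.31% and 15.1%, and of the 6706 genes up to 1 CPM 61 rose and 753 fell. The larger number of genes detected in lean libraries moved with this split, and its part in it was not tested. The effect also varied with transcript length. Coding genes of at least 10 CPM had a median log2 fold change of 0.65 where their exons spanned up to 1000 bases and 0.05 where they spanned over 8000. With each library's trend on length removed these medians were 0.32 and 0.14. Leaving out obese replicate 2 left 4627 calls, leaving out obese replicate 3 left 4493, and leaving out lean replicate 3 left 4650. In the gene lists below, 32 of 45 counts from 1 to 4 moved by over 1.5 times in some other setting or without a library, and for larger counts each such change is given beside the count. Of 17 counts of 0, 7 were above 0 in some setting.

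**Figure D1:**
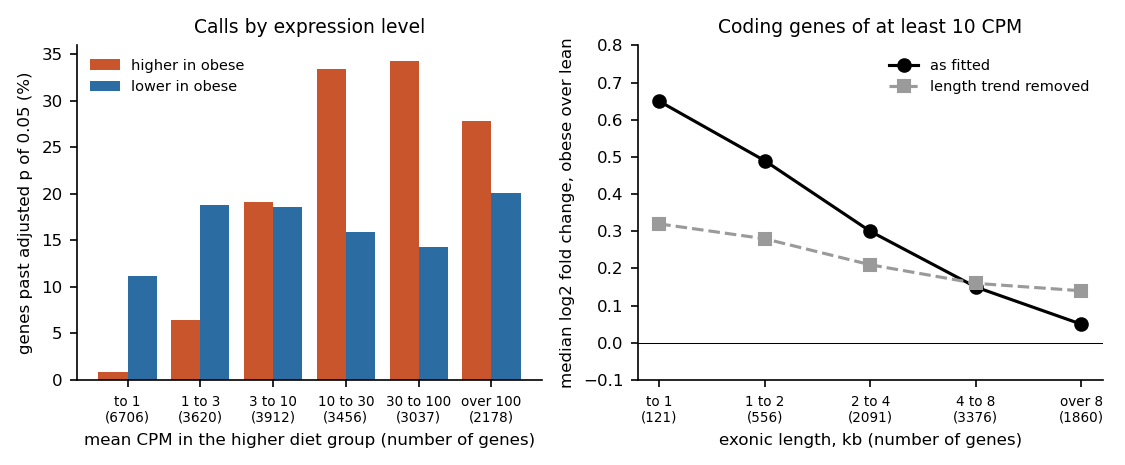
Left, share of tested genes past an adjusted p of 0.05 by mean CPM in the higher diet group, with bars for genes higher and lower in obese libraries and the number of genes under each class. Right, median log2 fold change of coding genes of at least 10 CPM by exonic length, as fitted (circles) and with the length trend removed (squares). Calls among genes up to 1 CPM were mostly lower (11.2%), and the median as fitted went from 0.65 in the shortest class to 0.05 in the longest.

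Genes of lipid-associated macrophages were higher in obese mice. Of 20 such genes 18 rose and 0 fell. Their median log2 fold change was 2.09 beside -0.10 over all tested genes. Gpnmb, a membrane glycoprotein of lysosome-rich cells (chromosome 6, 49036546 to 49070929 on GRCm38), stood at 15.8, 9.66 and 17.8 CPM in the lean libraries and 412, 771 and 723 CPM in the obese ones. Every obese library exceeded every lean one (log2 fold change 5.46, SE 0.50, adjusted p = 1.53e-06). Trem2, the lipid-sensing receptor, was at 26.5, 28.7 and 18.3 CPM in the lean libraries and 120.1, 195 and 202 CPM in the obese ones (log2 fold change 2.81, SE 0.25, adjusted p = 4.89e-07). The tetraspanin Cd9, a membrane organiser, was at 12.1, 16.7 and 9.198 CPM in the lean libraries and 100.1, 182 and 174 CPM in the obese ones (log2 fold change 3.58, SE 0.33, adjusted p = 1.19e-06). For all of these genes obese replicate 1 was the lowest of the obese libraries, and still far above the lean range. Atp6v0d2, a subunit of the proton pump that acidifies lysosomes, went from 11.96 ± 1.03 to 217 ± 57.8 CPM (log2 fold change 4.18). The elastase gene Mmp12 rose from 9.03 ± 1.496 to 138 ± 50.1 CPM (log2 fold change 3.93). All obese libraries exceeded all lean ones for these 2 genes as well. For Gpnmb, Atp6v0d2 and Mmp12 the rule for naming the largest rises required this. The members that did not pass were the scavenger receptor gene Cd36, at 1687 ± 83.6 CPM in lean and 2367 ± 225 CPM in obese libraries, and the fusion receptor gene Dcstamp, at 4.22 ± 1.17 CPM in lean and 5.41 ± 0.422 CPM in obese libraries. Cd36 passed without the filter and with these 2 groups fitted alone (adjusted p 0.00616 to 0.00748).

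Other genes with the largest rises are not known for lipid handling. Myh15, a myosin heavy chain gene, stood at 0.237, 0.2704 and 0.183 CPM in the lean libraries and 27.2, 83.7 and 85.8 CPM in the obese ones (log2 fold change 8.11, SE 0.93, adjusted p = 1.55e-05). It was low in every lean library, and obese replicate 1 had a far lower level than the other obese libraries. Fat3, an atypical cadherin, was at 1.34, 0.927 and 1.01 CPM in the lean libraries and 33.9, 118 and 105 CPM in the obese ones (log2 fold change 6.28). The ubiquitin ligase gene Rnf128 rose from 2.54 ± 0.338 to 71.5 ± 27.9 CPM, and Hmga2, a chromatin protein best known from embryonic tissue, from 0.547 ± 0.235 to 12.4 ± 4.43 CPM. Adhesion genes formed part of this set. Cadm1, an immunoglobulin-type adhesion molecule, rose from 7.67 ± 0.994 to 132 ± 48.4 CPM, the protocadherin gene Pcdh7 from 4.18 ± 0.432 to 92.98 ± 33.1 CPM, and Plxdc1, a membrane protein with a plexin-like domain, from 1.605 ± 0.359 to 26.8 ± 8.42 CPM. Dhrs9, a dehydrogenase that acts on retinol, rose from 2.56 ± 1.08 to 48.2 ± 8.36 CPM, and Cpe, a carboxypeptidase that processes peptide hormones, from 3.28 ± 0.533 to 45.1 ± 23.5 CPM. The libraries of the 2 diets did not overlap for any gene of this paragraph, which the rule for naming them required.

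**Figure D2:**
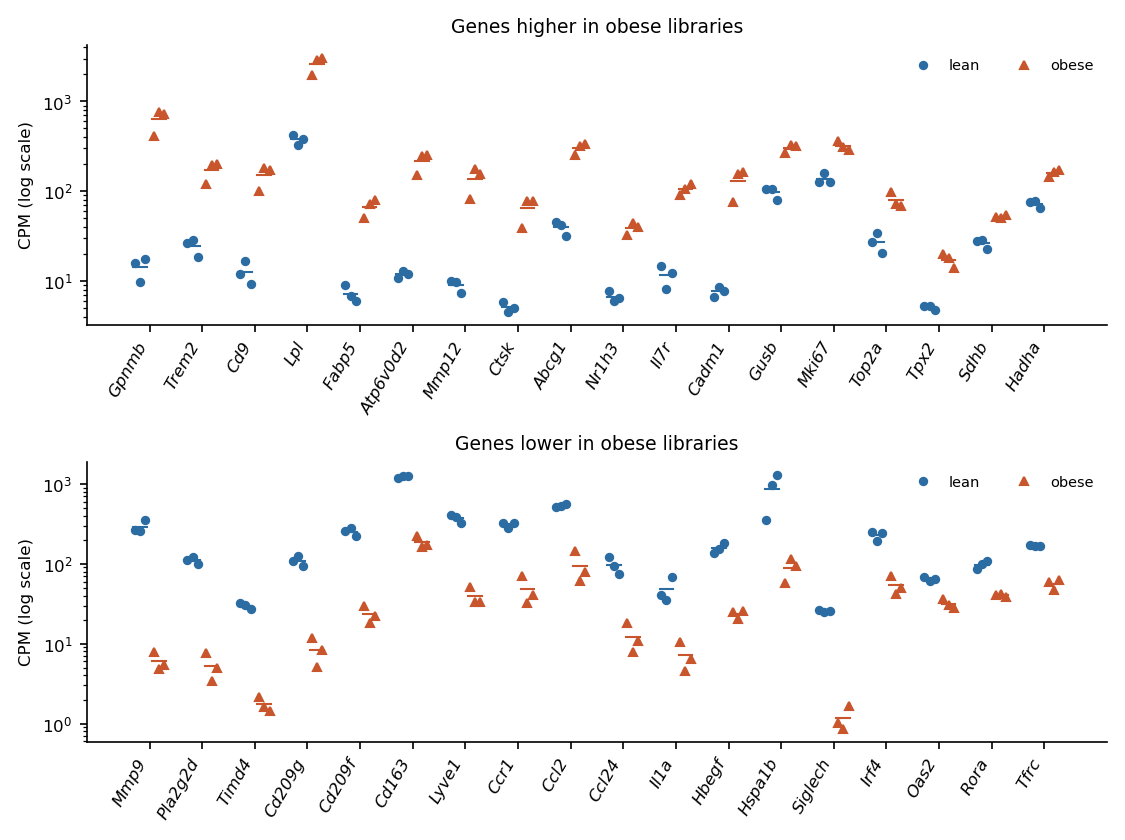
CPM of 36 named genes on a log scale in each of the 3 lean (circles) and 3 obese (triangles) libraries, in order of replicate number, with the group mean as a line. The upper panel shows genes that rose and the lower panel genes that fell; Gpnmb ran up to 771 CPM in obese libraries and Siglech down to 0.858 CPM.

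Sterol and fatty acid handling rose in part. Of 14 tested genes of sterol efflux and sterol esters 9 rose and 0 fell (median log2 fold change 0.74). Abcg1, an exporter of cholesterol to lipoproteins, stood at 45.5, 42.4 and 31.6 CPM in the lean libraries and 254, 319 and 334 CPM in the obese ones (log2 fold change 2.92, SE 0.24, adjusted p = 1.48e-07). The liver X receptor gene Nr1h3, whose product is known to switch on sterol efflux genes, was at 7.75, 5.99 and 6.41 CPM in the lean libraries and 32.2, 44.03 and 39.8 CPM in the obese ones (log2 fold change 2.52, SE 0.21, adjusted p = 1.15e-07). Groups did not overlap for either gene. The lipoprotein receptor gene Scarb1 went from 20.1 ± 2.64 to 55.3 ± 3.69 CPM and Stard3, a cholesterol transfer protein of late endosomes, from 16.9 ± 0.2799 to 37.8 ± 2.45 CPM. The other main exporter gene, Abca1, did not pass, at 1992 ± 236 CPM in lean and 1845 ± 172 CPM in obese libraries.

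For fatty acid uptake, lipid droplets and lipases 10 of 24 genes rose and 4 fell (median 0.37). Lpl, the secreted lipase that frees fatty acids from lipoproteins, stood at 428, 328 and 386 CPM in the lean libraries and 1988, 2899 and 3033 CPM in the obese ones (log2 fold change 2.79, SE 0.39, adjusted p = 6.60e-05). The fatty acid binding proteins Fabp5 and Fabp4 rose, Fabp5 from 7.26 ± 1.61 to 67.1 ± 15.1 CPM and Fabp4 from 32.6 ± 8.99 to 116 ± 24.01 CPM. Hilpda, a droplet protein that restrains triglyceride breakdown, rose from 31.98 ± 2.71 to 95.5 ± 14.7 CPM. Sterol synthesis changed less, with 9 of 23 genes higher and 3 lower (median 0.34). Among all genes of at least 10 CPM, a level that 14 of these 23 reached, the shares were 32.3% and 16.4%. The enzyme genes Msmo1, Cyp51 and Hmgcs1 rose by log2 fold changes of 0.91, 0.80 and 0.80, while Mvd, of the mevalonate pathway, had one of -0.78 and was among those that fell.

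Among 21 nuclear receptors 4 rose and 9 fell. Besides Nr1h3, Pparg, a fatty acid sensor that drives lipid uptake genes, rose from 21.4 ± 3.71 to 47.6 ± 2.597 CPM (log2 fold change 1.15). The glucocorticoid receptor gene Nr3c1 was among those that fell. Esr1, the oestrogen receptor alpha gene, stood at 28.3, 31.7 and 37.02 CPM in the lean libraries and 12.3, 9.04 and 10.1 CPM in the obese ones (log2 fold change -1.62, SE 0.19, adjusted p = 5.63e-06), and Nr3c2, the mineralocorticoid receptor gene, fell from 17.1 ± 3.35 to 6.74 ± 0.783 CPM. Sult1e1, which inactivates oestrogens by sulfation, was one of the 15 largest falls under the naming rule, from 12.9 ± 4.43 to 1.18 ± 0.4503 CPM (log2 fold change -3.43). The call of Nr3c1 was lost without obese replicate 1, 2 or 3 or lean replicate 1, 2 or 3 and without the filter and with the length trend removed (adjusted p 0.0837 to 0.264). The count of nuclear receptors that fell became 5 (omitting obese replicate 1).

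Lysosomal enzymes and the pump that acidifies their compartment were tested separately. Of 28 hydrolases and membrane proteins 15 rose and 1 fell (median 0.38). Gnptab, which builds the mannose phosphate tag that routes enzymes to lysosomes, was at 31.8, 31.98 and 28.7 CPM in the lean libraries and 94.9, 105 and 105 CPM in the obese ones (log2 fold change 1.72, SE 0.11, adjusted p = 1.15e-08). The glycosidase gene Gusb rose from 97.7 ± 16.2 to 305 ± 30.9 CPM. Psap, the precursor of the saposins that present sphingolipids to these enzymes, rose from 1919 ± 145 to 4261 ± 317 CPM. Among 13 cathepsins, the lysosomal proteases, 6 rose and 1 fell. Ctsk, best known from osteoclasts, stood at 5.81, 4.52 and 4.99 CPM in the lean libraries and 39.2, 77.05 and 77.9 CPM in the obese ones (log2 fold change 3.66, SE 0.37, adjusted p = 3.15e-06), well apart between diets. Ctsl rose from 195 ± 23.1 to 513 ± 96.7 CPM, Ctss from 398 ± 37.9 to 909.5 ± 146 CPM and Ctsz from 331 ± 41.1 to 521 ± 45.5 CPM. The proton pump moved less, with 5 of 17 subunits higher and 1 lower (median 0.11). Tcirg1 and Atp6v0a1, alternative forms of its largest membrane subunit, rose from 166 ± 7.91 to 404 ± 13.4 CPM and from 216 ± 27.5 to 413 ± 69.1 CPM, whereas the regulatory subunit gene Atp6v1h fell from 519 ± 55.9 to 244 ± 47.9 CPM. Most other subunits had no call, so the rises of Atp6v0d2 and Tcirg1 were not shared by the pump as a whole. The E-box CACGTG, the core of the motif bound by the TFE factors that control lysosomal genes, lay in the 250 bases before the start of 7 of 22 hydrolase and membrane protein genes and 4 of 10 cathepsin genes with a RefSeq promoter window (GRCm38.p6, either strand). Among those that rose it lay in 3 of 14 and 2 of 5. Its share over all 27025 genes with a window was 6.9%, and 0 of 14 lipid-associated genes held it. The call of Ctsz was lost without obese replicate 2 or 3 or lean replicate 1 or 3 (adjusted p 0.05301 to 0.100004). The count of lysosomal rises became 9 (omitting obese replicate 3). The count of cathepsin rises became 3 (omitting obese replicate 2 or 3 or lean replicate 1 or 3). The count of pump rises became 3 (omitting obese replicate 2 or 3 or lean replicate 3).

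Genes of dividing cells were higher in obese mice. Of 32 mitosis genes 30 rose and 0 fell (median log2 fold change 1.33). Summed over the list, they stood at 384, 434 and 335 CPM in lean and 928, 790.1 and 739 CPM in obese libraries, scaled to library totals only. Mki67, the Ki-67 antigen of cycling cells, was at 126, 159.6 and 126 CPM in the lean libraries and 359.6, 309 and 286 CPM in the obese ones (log2 fold change 1.22, SE 0.15, adjusted p = 6.12e-06). The DNA untangling enzyme gene Top2a stood at 27.3, 34.3 and 20.4 CPM in the lean libraries and 97.8, 72.96 and 68.3 CPM in the obese ones (log2 fold change 1.54, SE 0.16, adjusted p = 1.53e-06). Both genes separated the diets without overlap. Tpx2, a spindle assembly factor, rose from 5.12 ± 0.272 to 17.2 ± 3.09 CPM and Cenpe, a kinetochore motor, from 9.58 ± 0.564 to 23.5 ± 4.17 CPM. The 2 mitosis genes that did not pass were Cenpa and Kif23. Cenpa passed without lean replicate 1 (adjusted p = 0.0274).

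The promoters of these genes were searched for 2 short motifs. CCAAT is the box bound by the factor NF-Y, and TTTGAA is the core of the cell cycle genes homology region through which genes of late cell cycle are held down in resting cells. Within 250 bases before the start, on either strand, CCAAT lay in 20 of 27 mitosis genes with a RefSeq window and in 37.5% of all 27025 genes. TTTGAA lay in 9 of 27 and in 18.3%. Among the mitosis genes that rose these were 18 and 9 of 25. The last 120 bases before the start of 5 of them follow (RefSeq, GRCm38.p6), 5′ to 3′ along the gene. Both motifs or their reverse complements (ATTGG and TTCAAA) are in capitals. These 5 were chosen for their matches, and the same stretch of Birc5, which was also read, held neither motif.
Cdk1 (chr10:69352913-69353032, minus strand): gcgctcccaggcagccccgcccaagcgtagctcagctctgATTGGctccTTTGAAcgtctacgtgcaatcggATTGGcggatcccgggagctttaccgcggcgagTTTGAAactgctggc
Ccnb2 (chr9:70421555-70421674, minus strand): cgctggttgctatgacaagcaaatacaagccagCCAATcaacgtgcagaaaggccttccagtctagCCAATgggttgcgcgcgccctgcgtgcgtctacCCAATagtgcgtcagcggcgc
Top2a (chr11:99024190-99024309, minus strand): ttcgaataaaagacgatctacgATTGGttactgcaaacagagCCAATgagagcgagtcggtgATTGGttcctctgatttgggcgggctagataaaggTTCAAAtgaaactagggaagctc
Ube2c (chr2:164769809-164769928, plus strand): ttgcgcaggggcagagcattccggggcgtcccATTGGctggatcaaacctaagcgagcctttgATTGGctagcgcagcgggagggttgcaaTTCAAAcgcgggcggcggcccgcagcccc
Hmmr (chr11:40733438-40733557, minus strand): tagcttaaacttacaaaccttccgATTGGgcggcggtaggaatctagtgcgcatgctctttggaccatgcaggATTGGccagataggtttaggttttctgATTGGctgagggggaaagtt
Ccnb2 and Hmmr each held 3 CCAAT boxes in this stretch and no TTTGAA, Cdk1 held 2 and 2, and Top2a 3 and 1. In expression Cdk1, the kinase that starts mitosis, was at 1.86, 1.78 and 1.42 CPM in the lean libraries and 8.54, 7.03 and 6.97 CPM in the obese ones (log2 fold change 2.15, SE 0.27, adjusted p = 9.33e-06). Ube2c, which tags mitotic cyclins for destruction, rose from 1.97 ± 0.756 to 7.65 ± 0.7003 CPM, and Hmmr, a spindle-binding hyaluronan receptor, from 2.43 ± 0.8099 to 8.92 ± 1.07 CPM. Ccnb2, the cyclin B2 gene, rose from 9.02 ± 1.67 to 16.5 ± 4.26 CPM. A match to letters is a description and not a bound site.

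DNA replication genes followed, with 21 of 33 higher and 1 lower (median 0.78). The helicase subunit genes Mcm6, Mcm7 and Mcm5 rose by log2 fold changes of 1.42, 1.25 and 1.08, and Pole, the leading strand polymerase gene, by 1.27. The gene that fell was Mcm10, a replication initiation factor, from 18.7 ± 3.91 to 8.51 ± 2.23 CPM. Replication-dependent histone genes, put together after their values were seen, showed 52 of 64 higher and 0 lower (median 1.44). Their transcripts are short, with a median exonic length of 536 bases, and 48 rose with the length trend removed. They summed to 339, 345 and 227 CPM in lean and 1059, 776 and 721 CPM in obese libraries. These copies are near-identical in sequence, so the split of reads among them is uncertain. Among 25 cyclins, kinases and inhibitors 11 rose and 3 fell. Ccna2, the cyclin of S and G2 phase, rose from 4.34 ± 0.789 to 13.9 ± 1.61 CPM and the kinase gene Cdk6 from 147 ± 5.26 to 278 ± 34.2 CPM, while Ccnd2, a cyclin of G1 phase, fell from 51.1 ± 5.24 to 17.9 ± 1.84 CPM and the antiproliferative gene Btg2 from 189 ± 26.4 to 114 ± 5.79 CPM.

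**Figure D3:**
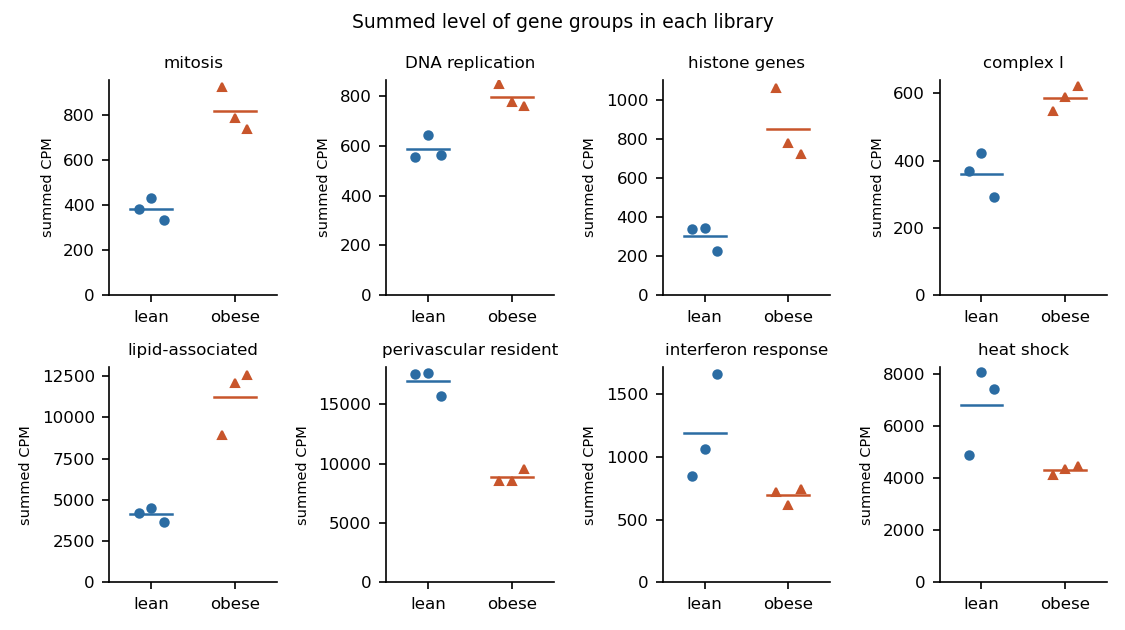
Summed CPM of 8 gene groups in each lean (circles) and obese (triangles) library, with the group mean as a line; sums are scaled to library totals only and each axis starts at 0. The mitosis, replication, histone, complex I and lipid-associated sums were higher in all 3 obese libraries, and the perivascular resident sum was lower in all 3, at 8562, 8541 and 9564 CPM. In the interferon and heat shock groups the lean libraries spread widely.

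Nuclear genes of the respiratory chain rose together by small amounts. In complex I, which passes electrons from NADH into the chain, 32 of 37 subunits rose and 0 fell (median 0.77). In complexes II to V, which end in the ATP synthase, it was 32 and 0 of 38 (median 0.77). Sdhb, of complex II, stood at 27.7, 28.5 and 22.9 CPM in the lean libraries and 51.6, 50.9 and 54.3 CPM in the obese ones (log2 fold change 0.98, SE 0.15, adjusted p = 9.45e-05). Ndufb5, of complex I, was at 10.8, 10.3 and 8.79 CPM in the lean libraries and 19.1, 19.03 and 19.9 CPM in the obese ones (log2 fold change 0.96, SE 0.14, adjusted p = 3.51e-05), and Uqcrc1, of complex III, at 52.4, 50.8 and 48.2 CPM in the lean libraries and 91.8, 81.1 and 92.6 CPM in the obese ones (log2 fold change 0.81, SE 0.13, adjusted p = 0.000105). The groups did not overlap for these 3 genes. Lean replicate 3 was the lowest for each. The transcripts of complex I had a median of 1569 exonic bases. With the length trend removed 26 and 30 subunits rose. Coding genes carried by mitochondrial DNA supply other subunits of the same complexes, and this set was chosen after its values were seen. Of the 12 tested, 1 rose and 0 fell, though 11 had a log2 fold change above 0 (median 0.35). Without the filter 5 rose, and with the length trend removed 0 rose and 1 fell. The count for complexes II to V became 17 (omitting obese replicate 3 or lean replicate 3).

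Fuel pathways were also higher. For fatty acid oxidation 18 of 24 genes rose and 2 fell (median 0.58). Hadha and Hadhb, the 2 subunits of the trifunctional enzyme of long-chain oxidation, rose from 72.8 ± 6.01 to 159 ± 14.1 CPM and from 30.9 ± 0.504 to 58.1 ± 2.696 CPM, and Echs1, the short-chain hydratase gene, from 9.596 ± 0.816 to 16.5 ± 0.966 CPM. Acadvl, of the first mitochondrial step for long chains, was among those that fell, from 39.98 ± 1.37 to 27.1 ± 1.82 CPM. In the tricarboxylic acid cycle 11 of 18 genes rose and 0 fell, with Mdh1 and Mdh2, the malate dehydrogenases, at log2 fold changes of 0.79 and 0.76. Glycolysis and the pentose phosphate route divided by step, with 13 of 27 higher and 4 lower. The glycolytic genes that rose lay from aldolase (Aldoa) through Tpi1, Gapdh, Pgk1, Pgam1, Eno1 and Pkm to lactate dehydrogenase (Ldha), besides the glucose transporter gene Slc2a1. Tkt, the transketolase gene, stood at 101, 99.5 and 82.5 CPM in the lean libraries and 194, 209 and 211 CPM in the obese ones (log2 fold change 1.12, SE 0.17, adjusted p = 5.48e-05), and Pgls and Taldo1 of the same route rose by log2 fold changes of 1.24 and 1.12. The genes that fell were those of the hexokinases, Hk1, Hk2 and Hk3, which trap glucose in the cell, and Pfkfb3, which makes the main activator of phosphofructokinase. Pfkfb3 fell from 450.4 ± 41.1 to 165 ± 10.9 CPM and Hk2 from 278 ± 35.9 to 144 ± 15.96 CPM. The call of Hk3 was lost without obese replicate 1, 2 or 3 or lean replicate 3 (adjusted p 0.0618 to 0.141). The fatty acid oxidation count became 9 (omitting lean replicate 3), 10 (omitting obese replicate 2) and 11 (omitting obese replicate 3).

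Genes of perivascular resident macrophages were lower in obese mice. Of 24 such genes 16 fell and 0 rose, with a median log2 fold change of -1.46. Timd4, the phosphatidylserine receptor TIM4, stood at 31.997, 30.1 and 27.1 CPM in the lean libraries and 2.14, 1.62 and 1.45 CPM in the obese ones (log2 fold change -4.09, SE 0.41, adjusted p = 2.08e-06). The C-type lectin genes Cd209f and Cd209g were at 258, 277 and 221 CPM in the lean libraries and 29.4, 18.1 and 22.1 CPM in the obese ones (log2 fold change -3.44, SE 0.43, adjusted p = 3.13e-05), and at 108, 125 and 94.2 CPM in the lean libraries and 11.9, 5.08 and 8.34 CPM in the obese ones. In each case all lean libraries lay well above all obese ones, and the rule for naming the largest falls required that they did not overlap. All 7 tested Cd209 genes fell, with a median log2 fold change of -3.18. They are similar in sequence and may share reads, and the family was put together after its values were seen. Cd163, the receptor for haemoglobin bound to haptoglobin, was at 1191, 1264 and 1240 CPM in the lean libraries and 224, 164 and 172 CPM in the obese ones (log2 fold change -2.72, SE 0.21, adjusted p = 3.99e-08), and Lyve1, a hyaluronan receptor, at 408, 382 and 325 CPM in the lean libraries and 51.6, 33.6 and 33.7 CPM in the obese ones (log2 fold change -3.23, SE 0.50, adjusted p = 0.000189). Not every resident gene fell. The selenoprotein gene Selenop was at 3593 ± 52.6 CPM in lean and 3384 ± 651 CPM in obese libraries, and Igf1, a growth factor, at 371 ± 57.8 CPM in lean and 509 ± 47.1 CPM in obese libraries. Neither passed in the fit over all groups. Without the filter, and likewise with these 2 groups alone, 2 genes of the list rose. Mrc1, the mannose receptor gene, was among those that fell, though by less, from 3402 ± 101 to 2012 ± 80.2 CPM (log2 fold change -0.76). Igf1 passed without the filter and with these 2 groups fitted alone (adjusted p 0.0132 to 0.0193).

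The other large falls included secreted enzymes. Mmp9, a gelatinase that cuts basement membrane collagen (chromosome 2, 164940780 to 164955850 on GRCm38), stood at 268, 256 and 350.2 CPM in the lean libraries and 7.98, 4.88 and 5.37 CPM in the obese ones (log2 fold change -5.58, SE 0.49, adjusted p = 1.19e-06). Its neighbour Slc12a5, a potassium chloride cotransporter gene best known from neurons, fell as well, from 29.4 ± 3.06 to 2.19 ± 0.477 CPM; it starts at position 164960802 of the same chromosome, and whether reads running past the end of Mmp9 fell on it was not tested. Pla2g2d, a secreted phospholipase A2, was at 110.4, 122 and 98.9 CPM in the lean libraries and 7.63, 3.397 and 4.95 CPM in the obese ones (log2 fold change -4.37, SE 0.29, adjusted p = 1.97e-08). Mucl1, a mucin-like gene, had the largest fall under the naming rule, which took called genes of at least 10 CPM without overlap or clone-type names. It went from 13.4 ± 4.73 to 0.121 ± 0.109 CPM, with lean replicates at 15.9, 16.3 and 7.92 CPM. Among 24 matrix proteases and inhibitors 7 rose and 4 fell, so the direction differed within the group. Both counts lie near the 32.3% and 16.4% of all genes of at least 10 CPM. Besides Mmp12, the sheddase gene Adam8 rose from 85.2 ± 32.8 to 448 ± 45.1 CPM. Plau, the urokinase gene, was among those that fell, from 422 ± 63.9 to 238 ± 40.7 CPM. For Mucl1 the log2 fold change became -7.44 without obese replicate 1 and -6.14 without obese replicate 2. The call of Plau was lost without obese replicate 1, 2 or 3 or lean replicate 2 or 3 (adjusted p 0.0528 to 0.157).

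Signalling genes moved in both directions. Of 24 chemokines 3 rose and 6 fell (median -0.36). The monocyte attractants Ccl2 and Ccl7 stood at 508, 525 and 559 CPM in the lean libraries and 146, 60.6 and 78.7 CPM in the obese ones (log2 fold change -2.48, SE 0.45, adjusted p = 0.000622), and at 285, 305 and 324 CPM in the lean libraries and 81.4, 34.3 and 43.3 CPM in the obese ones (log2 fold change -2.52, SE 0.38, adjusted p = 0.000142). Their neighbour Ccl12, a further ligand of CCR2, fell from 23.4 ± 6.62 to 4.13 ± 1.501 CPM, and the eosinophil attractant gene Ccl24 fell from 96.6 ± 25.1 to 12.2 ± 5.24 CPM. The lean range lay above the obese range for all 4 genes. Chemokines that rose were Ccl9, Cxcl14 and Cxcl16, with Cxcl16, which is also a scavenger receptor for oxidised lipid, from 153 ± 19.7 to 233 ± 17.5 CPM. Among 22 chemoattractant receptors 3 rose and 4 fell. Ccr1, a receptor of inflammatory chemokines, was at 322, 281 and 328 CPM in the lean libraries and 70.7, 32.4 and 40.7 CPM in the obese ones (log2 fold change -2.70, SE 0.37, adjusted p = 6.15e-05), and the nucleotide receptor gene P2ry12 fell from 36.4 ± 4.62 to 13.7 ± 2.001 CPM. Ccr2, the receptor of Ccl2, was at 229.8 ± 65.3 CPM in lean and 183 ± 65.2 CPM in obese libraries and did not pass. The call of Ccl9 was lost without obese replicate 1, 2 or 3 or lean replicate 1, 2 or 3 (adjusted p 0.06304 to 0.166). The call of Cxcl16 was lost without obese replicate 1 or lean replicate 1 (adjusted p 0.0512 to 0.0632). The count of chemokines that fell became 10 (with the length trend removed) and 11 (without the filter).

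Inflammatory cytokines and inflammasome genes showed 2 of 30 higher and 7 lower. Il1a, of the interleukin 1 family, stood at 40.2, 35.4 and 67.9 CPM in the lean libraries and 10.5, 4.55 and 6.51 CPM in the obese ones (log2 fold change -2.73, SE 0.48, adjusted p = 0.000520), and the inflammasome sensor gene Nlrp3 fell from 548 ± 170.3 to 327 ± 34.8 CPM. Neither Il1b, at 108 ± 41.1 CPM in lean and 169 ± 50.7 CPM in obese libraries, nor Tnf, at 234 ± 73.8 CPM in lean and 122 ± 46.4 CPM in obese libraries, passed the test. Tnfaip2, a TNF-induced gene, rose from 171 ± 44.1 to 590.3 ± 77.4 CPM. Of 24 growth and angiogenic factors 5 rose and 8 fell. Gdf3, a ligand of the TGF-beta family, was at 2.14, 2.01 and 2.79 CPM in the lean libraries and 19.95, 25.001 and 23.2 CPM in the obese ones (log2 fold change 3.30, SE 0.31, adjusted p = 4.44e-07), and Hbegf, a ligand of the EGF receptor, at 135, 154 and 182 CPM in the lean libraries and 25.03, 20.5 and 25.9 CPM in the obese ones (log2 fold change -2.72, SE 0.27, adjusted p = 1.41e-06). They moved in opposite directions, each without overlap. Bmp2, a bone morphogenetic protein gene, fell from 96.9 ± 23.1 to 24.5 ± 5.36 CPM, and Vegfa, the endothelial growth factor, was among those that rose, from 59.6 ± 21.4 to 158 ± 24.8 CPM. Of 31 cytokine and growth factor receptors 10 were higher and 7 lower, beside 32.3% and 16.4% of all genes of at least 10 CPM. Il7r, the interleukin 7 receptor gene, was at 14.6, 8.19 and 12.2 CPM in the lean libraries and 91.5, 105 and 121 CPM in the obese ones (log2 fold change 3.18, SE 0.28, adjusted p = 5.47e-07), and Tgfbr1, a TGF-beta receptor gene, rose from 102 ± 13.8 to 284 ± 9.06 CPM. Il4ra, the receptor chain for interleukins 4 and 13, was among those that fell, from 555 ± 18.05 to 263 ± 48.2 CPM, and Csf1r, the receptor for macrophage colony-stimulating factor, was at 2168 ± 10.3 CPM in lean and 1885 ± 65.4 CPM in obese libraries with no call. The call of Nlrp3 was lost without obese replicate 2 or lean replicate 3 (adjusted p 0.0607 to 0.114). Il1b passed without the filter (adjusted p = 0.000221). Tnf passed without the filter and with these 2 groups fitted alone and with the length trend removed (adjusted p 8.48e-07 to 0.0418). The count of cytokine and inflammasome genes that fell became 1 (omitting lean replicate 3) and 2 (omitting obese replicate 2 or 3). The count of receptors that fell became 3 (omitting obese replicate 2) and 4 (omitting obese replicate 3 or lean replicate 1 or 3).

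Interferon response genes were lower where they changed. Of 32 such genes 12 fell and 0 rose (median -0.50). Rsad2, the antiviral enzyme viperin, stood at 26.4, 37.4 and 132 CPM in the lean libraries and 22.4, 16.99 and 18.5 CPM in the obese ones (log2 fold change -1.76, SE 0.54, adjusted p = 0.02003). Ifit1, which binds foreign RNA caps, was at 5.81, 11.9 and 35.3 CPM in the lean libraries and 6.62, 5.05 and 4.797 CPM in the obese ones (log2 fold change -1.68, SE 0.52, adjusted p = 0.02101). Lean replicate 3 was by far the highest for both genes. The groups overlapped for Ifit1 and nearly met for Rsad2. Gbp7, a guanylate binding protein, and Oas2, an RNA-sensing synthetase, had steadier values and fell from 67.02 ± 4.55 to 24.3 ± 4.38 CPM and from 64.03 ± 3.59 to 31.7 ± 4.36 CPM. Stat2, the signal transducer of type I interferon, fell from 50.9 ± 2.38 to 29.9 ± 1.91 CPM. The summed list stood at 845, 1066 and 1662 CPM in lean and 724, 614 and 746 CPM in obese libraries. A pair of TTTC with 2 bases between, the core of the interferon-stimulated response element, lay within 250 bases before the start of 12 of 25 list genes with a window, of 6 of the 9 among them that fell, and of 3.5% of all genes. The last 120 bases before the start of 3 genes that fell are given with this pair, or its reverse complement (GAAA and GAAA), in capitals (RefSeq, GRCm38.p6, 5′ to 3′ along the gene). These 3 were chosen for their matches, and the same stretch of 5 others of the list that were read held none.
Rsad2 (chr12:26456453-26456572, minus strand): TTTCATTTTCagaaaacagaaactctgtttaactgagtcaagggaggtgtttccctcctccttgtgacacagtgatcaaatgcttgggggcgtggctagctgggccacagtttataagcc
Ifit1 (chr19:34640769-34640888, plus strand): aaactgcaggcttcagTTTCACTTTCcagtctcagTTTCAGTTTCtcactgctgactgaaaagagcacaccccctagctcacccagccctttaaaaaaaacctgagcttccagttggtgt
Isg15 (chr4:156200819-156200938, minus strand): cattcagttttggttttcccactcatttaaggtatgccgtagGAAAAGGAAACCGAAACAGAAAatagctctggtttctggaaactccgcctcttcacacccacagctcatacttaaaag
Isg15, a ubiquitin-like modifier, held 3 overlapping matches and was at 9.77, 17.2 and 42.3 CPM in the lean libraries and 9.73, 4.49 and 6.47 CPM in the obese ones (log2 fold change -1.74, SE 0.54, adjusted p = 0.0207). Ifit1 held 2 matches and Rsad2 1 at the far end of the stretch. The call of Rsad2 was lost without obese replicate 1, 2 or 3 or lean replicate 3 and with these 2 groups fitted alone (adjusted p 0.0592 to 0.299). For Rsad2 the log2 fold change became -0.70 without lean replicate 3. The call of Ifit1 was lost without obese replicate 1, 2 or 3 or lean replicate 3 and with these 2 groups fitted alone (adjusted p 0.0552 to 0.295). For Ifit1 the log2 fold change became -0.66 without lean replicate 3. The call of Isg15 was lost without obese replicate 2 or 3 or lean replicate 3 (adjusted p 0.0943 to 0.212). For Isg15 the log2 fold change became -0.94 without lean replicate 3. The count of interferon genes that fell became 3 (omitting lean replicate 3), 4 (omitting obese replicate 2) and 5 (omitting obese replicate 1 or 3).

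Of 30 pattern and scavenger receptors 10 rose and 5 fell. These counts lie near the 32.3% and 16.4% of all genes of at least 10 CPM. Tlr5, the flagellin receptor gene, stood at 60.7, 57.8 and 55.1 CPM in the lean libraries and 17.9, 11.7 and 12.1 CPM in the obese ones (log2 fold change -2.06, SE 0.23, adjusted p = 2.98e-06), whereas Tlr13, a sensor of bacterial ribosomal RNA, was at 24.1, 36.2 and 28.1 CPM in the lean libraries and 87.2, 122 and 121 CPM in the obese ones (log2 fold change 1.90, SE 0.22, adjusted p = 6.93e-06). Tlr1 and Clec12a, an inhibitory lectin that recognises dead cells, rose from 26.9 ± 1.96 to 56.8 ± 7.68 CPM and from 103 ± 11.05 to 225 ± 29.02 CPM. The lipopolysaccharide receptor genes Tlr4 and Cd14 did not pass, at 55.3 ± 4.86 CPM in lean and 50.9 ± 2.85 CPM in obese libraries and at 745 ± 38.5 CPM in lean and 647 ± 62.7 CPM in obese libraries. The count of pattern receptors that rose became 6 (omitting obese replicate 2 or 3 or lean replicate 2).

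Immediate early genes, which respond within minutes to stimuli and to tissue digestion, mostly fell where they changed. Of 25 such genes 13 fell and 1 rose (median -0.51). Jund and Fosb, subunits of the factor AP-1, stood at 660.4, 623 and 663 CPM in the lean libraries and 348, 372 and 407 CPM in the obese ones (log2 fold change -0.79, SE 0.11, adjusted p = 4.54e-05), and at 2310, 2840 and 2690 CPM in the lean libraries and 1466, 1690 and 1825 CPM in the obese ones (log2 fold change -0.65, SE 0.12, adjusted p = 0.000317). Ier5 fell from 352 ± 36.3 to 209.8 ± 45.1 CPM. The gene that rose was Fos, from 545 ± 45.3 to 859.7 ± 131 CPM (log2 fold change 0.66). Groups did not overlap for Jund or Fosb. Egr1, at 722 ± 199 CPM in lean and 403 ± 95.3 CPM in obese libraries, and Jun, at 565 ± 69.6 CPM in lean and 462 ± 29.8 CPM in obese libraries, did not pass. The call of Fos was lost without obese replicate 1 (adjusted p = 0.0828). Egr1 passed without the filter and with these 2 groups fitted alone (adjusted p 8.52e-06 to 0.0132). Jun passed with these 2 groups fitted alone and with the length trend removed (adjusted p 0.0404 to 0.0407). The count of immediate early genes that fell became 7 (omitting obese replicate 2).

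Of 22 heat shock and chaperone genes 8 fell and 2 rose. The largest falls were those of Hspa1b and Hspa1a, which encode the inducible HSP70. Hspa1b stood at 354, 962 and 1286 CPM in the lean libraries and 57.3, 114 and 94.5 CPM in the obese ones (log2 fold change -3.29, SE 0.58, adjusted p = 0.000528) and Hspa1a at 372, 922 and 1044 CPM in the lean libraries and 86.1, 148 and 129 CPM in the obese ones (log2 fold change -2.69, SE 0.49, adjusted p = 0.000691). Lean replicate 1 was the lowest of the lean libraries for both, yet above every obese library. The 2 genes lie side by side on chromosome 17 and are near-identical, so reads cannot be assigned firmly to either. Their promoters are as close, with 199 of 200 bases identical before the start. That of Hspa1b is printed with its match to GAANNTTC, the paired unit of the heat shock element, in capitals (RefSeq, GRCm38.p6).
Hspa1b (chr17:34959239-34959438, minus strand): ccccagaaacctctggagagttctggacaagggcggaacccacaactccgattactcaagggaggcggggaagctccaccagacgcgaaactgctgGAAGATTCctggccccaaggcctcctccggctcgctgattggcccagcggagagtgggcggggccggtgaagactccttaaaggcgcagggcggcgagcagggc
GAANNTTC lay within 250 bases before the start of 6 of 16 heat shock genes with a window, of 4 of the 7 among them that fell, and of 7.7% of all genes. Hsp90aa1, the inducible HSP90 gene, was among those that fell, from 843 ± 229.97 to 429 ± 12.7 CPM, and the co-chaperone Dnajb1 fell from 73.2 ± 13.6 to 44.1 ± 1.79 CPM. Hspa8, the constitutive family member, was at 1362 ± 283 CPM in lean and 1266 ± 103 CPM in obese libraries with no call. The count of heat shock genes that fell became 5 (omitting obese replicate 2 or 3 or lean replicate 2).

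Genes of the ER stress and amino acid response numbered 7 higher and 4 lower of 26. These counts lie near the 32.3% and 16.4% of all genes of at least 10 CPM, a level that 20 of the 26 reached. Psat1 and Shmt2, of serine and glycine metabolism, rose from 9.35 ± 0.562 to 21.5 ± 2.22 CPM and from 10.8 ± 1.42 to 17.9 ± 0.498 CPM. The ER genes Dnajb9 and Herpud1 fell from 123 ± 32.8 to 65.3 ± 3.18 CPM and from 125 ± 20.7 to 77.8 ± 8.79 CPM. Of 19 circadian clock genes 8 fell and 1 rose. Rora, a nuclear receptor that activates clock genes, stood at 85.3, 99.3 and 109 CPM in the lean libraries and 40.8, 42.2 and 38.6 CPM in the obese ones (log2 fold change -1.27, SE 0.15, adjusted p = 4.87e-06), and Cry1, a clock repressor, fell from 45.5 ± 3.19 to 23.8 ± 7.002 CPM. The time of day of tissue collection is not given in the labels. Among 32 transcription factors of the macrophage lineage and of lysosomes 4 rose and 8 fell. Irf4, which supports alternative activation, was at 249, 192 and 243 CPM in the lean libraries and 70.2, 42.1 and 49.8 CPM in the obese ones (log2 fold change -2.08, SE 0.26, adjusted p = 1.60e-05), Cebpd fell from 81.9 ± 11.3 to 28.1 ± 1.49 CPM and Runx1 from 651 ± 21.5 to 392 ± 29.8 CPM. Tfeb and Mitf, which drive lysosomal genes, rose by log2 fold changes of 0.64 and 0.63. The call of Dnajb9 was lost without lean replicate 2 (adjusted p = 0.06297). The call of Herpud1 was lost without obese replicate 2 or 3 or lean replicate 2 (adjusted p 0.0519 to 0.0619). The call of Cry1 was lost without obese replicate 2 (adjusted p = 0.0681). The call of Mitf was lost without obese replicate 2 or 3 or lean replicate 2 or 3 (adjusted p 0.0599 to 0.132). The count of ER stress genes that rose became 2 (omitting obese replicate 2), 3 (omitting obese replicate 3) and 4 (omitting lean replicate 2 or 3). The count of clock genes that fell became 3 (omitting obese replicate 2), 4 (omitting obese replicate 1 or 3 or lean replicate 3) and 5 (omitting lean replicate 2). The count of transcription factors that fell became 5 (omitting lean replicate 1).

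Few antigen presentation genes passed, with 2 of 19 genes higher and 2 lower. The genes that fell were Cd86 and Cd80, ligands of CD28. Cd86 stood at 509.97, 468 and 528 CPM in the lean libraries and 286, 163 and 196 CPM in the obese ones (log2 fold change -1.22, SE 0.26, adjusted p = 0.001803), and Cd80 fell from 51.9 ± 7.15 to 23.3 ± 7.85 CPM. The MHC class II chain gene H2-Aa and the invariant chain gene Cd74 did not pass, at 2516 ± 484 CPM in lean and 3153 ± 354 CPM in obese libraries and at 7339 ± 1294 CPM in lean and 7755 ± 871 CPM in obese libraries. Complement was split, with 3 of 23 genes higher and 3 lower. C4b of the classical pathway was at 619, 478 and 632 CPM in the lean libraries and 219.5, 294 and 212 CPM in the obese ones (log2 fold change -1.25, SE 0.42, adjusted p = 0.0323). The C1q genes C1qa, C1qb and C1qc had log2 fold changes of 0.16, 0.73 and 0.39 and no call. Of 11 Fc receptor genes 3 rose and 1 fell. The activating receptor genes Fcgr4 and Fcgr1 rose from 9.42 ± 1.04 to 33.5 ± 8.68 CPM and from 35.3 ± 2.67 to 69.4 ± 12.8 CPM, and Fcgr2b, the inhibitory receptor gene, fell from 365 ± 37.9 to 238 ± 17.8 CPM. The call of C4b was lost without obese replicate 1, 2 or 3 or lean replicate 1 or 3 (adjusted p 0.0644 to 0.122). C1qb passed without the filter and with these 2 groups fitted alone (adjusted p 1.50e-05 to 0.00939). C1qc passed without the filter (adjusted p = 0.0379).

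Receptors and bridging molecules for apoptotic cells numbered 8 higher and 4 lower of 24. This is near the shares among all genes of at least 10 CPM, 32.3% and 16.4%, a level that 17 of the 24 reached. Besides the fall of Timd4, the integrin subunit gene Itgav rose from 163 ± 7.28 to 397 ± 42.9 CPM and the transglutaminase gene Tgm2 from 50.4 ± 8.18 to 157 ± 23.9 CPM. The TAM receptor gene Axl was among those that rose, from 227 ± 13.7 to 626 ± 67.03 CPM, its ligand gene Gas6 was among those that fell, from 438 ± 29.9 to 189 ± 9.303 CPM, and the related receptor gene Mertk, at 135 ± 6.61 CPM in lean and 85.8 ± 17.2 CPM in obese libraries, did not pass. Lrp1, a large endocytic receptor, rose from 1545 ± 163 to 3816 ± 346 CPM. Iron and haem genes were lower more often than higher, with 4 of 22 up and 7 down. Tfrc, the transferrin receptor gene, stood at 171, 165 and 165 CPM in the lean libraries and 59.1, 47.3 and 62.1 CPM in the obese ones (log2 fold change -1.57, SE 0.15, adjusted p = 4.01e-07). Cp, the ferroxidase ceruloplasmin, fell from 82.7 ± 8.79 to 29.1 ± 8.296 CPM, and the iron exporter gene Slc40a1 was among those that fell, from 45.3 ± 5.28 to 13.6 ± 5.82 CPM. Blvra, which reduces biliverdin, rose from 27.7 ± 2.02 to 53.03 ± 6.72 CPM. Hmox1, which breaks down haem, was at 1515, 2294 and 1565 CPM in the lean libraries and 1129, 426 and 575 CPM in the obese ones. Its libraries did not overlap, but the test did not pass (adjusted p = 0.0831). The call of Gas6 was lost without obese replicate 3 (adjusted p = 0.0507). Mertk passed without the filter and with these 2 groups fitted alone (adjusted p 0.00194 to 0.00357). Hmox1 passed without the filter and with these 2 groups fitted alone and with the length trend removed (adjusted p 2.04e-14 to 0.0455). The count of iron and haem genes that fell became 11 (with these 2 groups fitted alone).

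Inhibitory receptors numbered 9 higher and 5 lower of 20. Siglech, a lectin best known from plasmacytoid dendritic cells, stood at 26.4, 24.9 and 25.7 CPM in the lean libraries and 1.02, 0.858 and 1.64 CPM in the obese ones (log2 fold change -4.46, SE 0.43, adjusted p = 8.97e-07). Havcr2, the TIM3 gene, rose from 5.496 ± 0.561 to 15.02 ± 1.796 CPM, Sirpa, which reads the self signal CD47, from 551 ± 19.8 to 1062 ± 92.1 CPM, and Cd300a, a lipid-binding receptor gene, from 113 ± 19.5 to 207 ± 7.27 CPM. Of 24 integrin and adhesion genes 11 rose and 5 fell, with Itgb5, the partner of Itgav, from 57.5 ± 2.77 to 211 ± 41.05 CPM. Redox genes counted 10 higher and 1 lower of 30, and 27 of the 30 reached 10 CPM. Of all genes of that level 32.3% rose and 16.4% fell, so the redox rises lie near the general share. Gpx1, a glutathione peroxidase, rose from 249 ± 62.03 to 559 ± 40.98 CPM and Cybb, the catalytic subunit of the phagocyte oxidase, from 479 ± 28.4 to 765 ± 49.5 CPM. For phospholipases and eicosanoid enzymes 3 of 26 rose and 5 fell. Ltc4s, the leukotriene C4 synthase gene, fell from 27.6 ± 5.37 to 5.63 ± 1.08 CPM and Lta4h, which makes leukotriene B4, rose from 22.1 ± 2.26 to 33.04 ± 2.57 CPM. Guidance genes included opposite moves of semaphorins, with 4 of 26 higher and 9 lower. Sema4a stood at 174, 180.1 and 185 CPM in the lean libraries and 57.2, 34.9 and 45.2 CPM in the obese ones (log2 fold change -1.97, SE 0.23, adjusted p = 5.21e-06), and Sema4d at 38.8, 27.7 and 43.2 CPM in the lean libraries and 143, 153 and 156 CPM in the obese ones (log2 fold change 2.04, SE 0.25, adjusted p = 1.44e-05). The count of redox genes that rose became 6 (omitting obese replicate 3). The count of eicosanoid genes that fell became 9 (with these 2 groups fitted alone). The count of guidance genes that fell became 5 (omitting obese replicate 3). The count of adhesion genes that fell became 2 (omitting obese replicate 2 or lean replicate 2) and 3 (omitting obese replicate 3 or lean replicate 3).

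**Figure D4:**
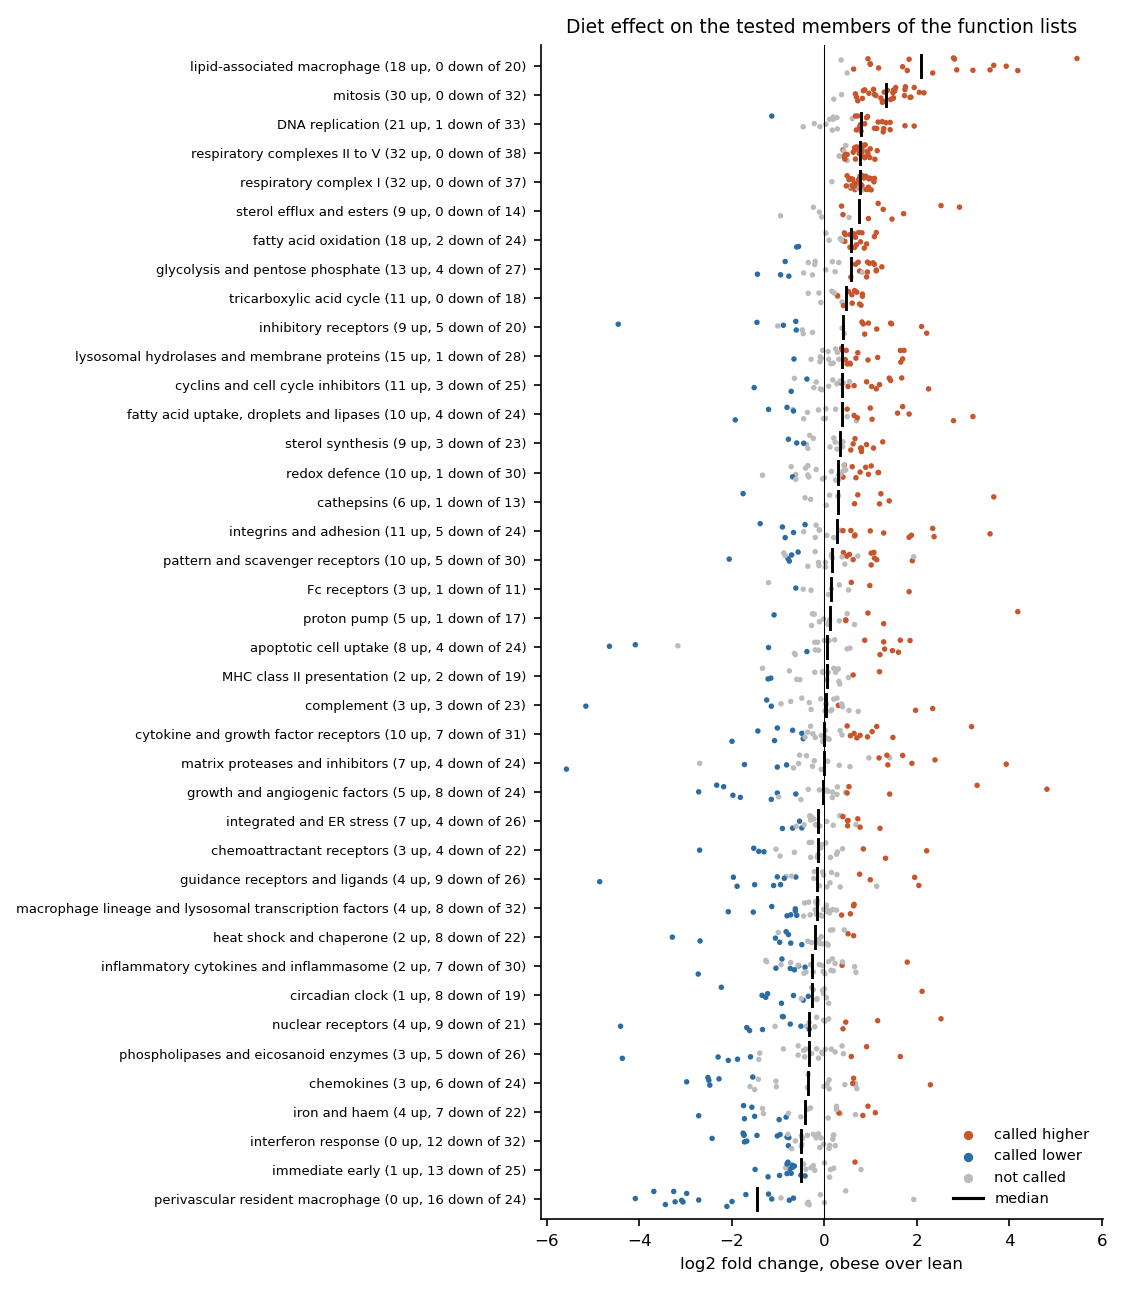
Log2 fold change (obese over lean) of every tested member of the 40 function lists, coloured by whether it was called higher, lower or neither, with the list median as a black bar and the counts in the row label. Medians ran from -1.46 in perivascular resident macrophage genes to 2.09 in lipid-associated macrophage genes.

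Markers of other cells were read in the same libraries. Of 10 macrophage identity genes 3 rose and 0 fell, and Adgre1, which encodes F4/80, was at 451, 499 and 473 CPM in the lean libraries and 811, 1000 and 1114 CPM in the obese ones (log2 fold change 1.04, SE 0.25, adjusted p = 0.00359). T and NK cell markers counted 0 higher and 9 lower of 15, and only 1 of the 15 reached 10 CPM in its higher group. The 15 markers summed to 60.5 to 70.6 CPM in lean and 15.5 to 17.3 CPM in obese libraries, with Cd3e at 1.55 ± 0.282 CPM in lean and 0.577 ± 0.139 CPM in obese libraries. Of all genes under 10 CPM, 7.31% rose and 15.1% fell, and the olfactory and vomeronasal receptor sum was lower in obese libraries too. The part of this low-level shift in the T and NK cell count was not tested. Adipocyte markers counted 1 higher and 7 lower of 14, though macrophages express the list's Cd36 as well, which made up most of its sum of 1653 to 1843 CPM in lean and 2102 to 2547 CPM in obese libraries. Adipoq stood at 1.31, 2.28 and 0.3203 CPM in the lean libraries and 0.5601, 0.396 and 0.381 CPM in the obese ones and Car3 at 36.4, 43.1 and 35.3 CPM in the lean libraries and 4.41, 4.32 and 4.61 CPM in the obese ones. Dendritic cell markers counted 1 higher and 6 lower of 20 (sums of 612 to 685 and 415 to 531 CPM). The 1 higher was Cadm1, with a log2 fold change of 4.10. Irf4, which is also in the list of macrophage lineage factors, was among the 6 lower (log2 fold change -2.08). By the CPM given above, Irf4 alone fell by about as much as the sum of this list. The lower sum thus does not show that the other dendritic cell markers together were lower. Erythroid markers counted 0 and 2 of 5 and summed to 1.34 to 11.9 and 1.38 to 3.06 CPM. Summed T and NK cell markers were thus lower in every obese library, and so were summed dendritic cell markers with Irf4 included. Their part in the falls of other genes was not tested. The call of Cd3e was lost without obese replicate 1 or lean replicate 3 (adjusted p 0.0624 to 0.0671). Adipoq passed without lean replicate 3 and with DESeq2 and without the filter and with the length trend removed (adjusted p 0.0236 to 0.0435).

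Fibroblast markers counted 3 higher and 0 lower of 16, and summed to 1068, 1519 and 1478 CPM in lean and 1452, 3214 and 1730 CPM in obese libraries, with obese replicate 2 the highest. Their part in the rises was not tested. The genes that rose were the collagens Col1a1 and Col3a1 and the proteoglycan Lum, while Pdgfra, a defining receptor of these cells, was at 24.4 ± 4.56 CPM in lean and 20.6 ± 12.3 CPM in obese libraries with no call. Mast cell and eosinophil markers counted 2 higher and 0 lower of 7, and summed to 13.4, 14.1 and 20.05 and 8.43, 48.8 and 54.5 CPM, with Epx at 0 in 2 obese libraries. Endothelial markers counted 1 and 0 of 14 (sums of 155 to 175 and 177 to 295 CPM), the gene that rose being Fabp4, which macrophages express too. Mesothelial markers counted 0 and 2 of 10 (35.3 to 57.98 and 13.2 to 37.2 CPM), mural 1 and 2 of 8 (60.2 to 68.9 and 40.5 to 60.1 CPM), and B cell 1 and 2 of 11 (187 to 204 and 148 to 189 CPM). Neutrophil markers summed to at most 2.78 CPM, with Ly6g at 0 in all 6 libraries. Monocyte markers counted 3 and 3 of 18, with Ly6c2, of classical monocytes, at 2.61 ± 0.284 CPM in lean and 1.39 ± 0.625 CPM in obese libraries and no call. The call of Col1a1 was lost without obese replicate 2 or lean replicate 1, 2 or 3 (adjusted p 0.0558 to 0.133). The call of Lum was lost without obese replicate 2 or 3 or lean replicate 1, 2 or 3 and with the length trend removed (adjusted p 0.0605 to 0.209). Ly6c2 passed without obese replicate 3 and with DESeq2 and with these 2 groups fitted alone and with the length trend removed (adjusted p 0.0355 to 0.0492). The fibroblast count became 1 without obese replicate 2, with log2 fold changes of 1.08 for Col1a1 and 1.06 for Lum.

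The diet effect was compared with that in the other 2 populations sorted from both diets. Against MHCII-low macrophages the difference of the 2 diet effects passed for 0 of 22935 genes with edgeR (0%), while 634 had an unadjusted p under 0.05 and DESeq2 called 8. A difference that misses the threshold does not show that the effects were equal. Of the 7422 calls in CD11c-negative macrophages 5144 were called in the same direction in MHCII-low macrophages, 69.3% of the calls in the former and 73.2% of those in the latter, and 0 in the opposite one. The labels do not say whether both populations came from the same mice.

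Against monocyte-derived cells the diet effects differed for 1459 genes (6.36%), 575 with a higher log2 fold change in CD11c-negative macrophages (2.51%) and 884 with a lower one (3.85%). Cd9 rose in CD11c-negative macrophages and had a log2 fold change of 0.42 in monocyte-derived cells, a difference of 3.17 (SE 0.44, adjusted p = 0.000636). Plxdc1 differed by 3.86. On the other side Mmp9 differed by -4.10, the nuclease gene Dnase1l3 by -3.53 and Cd38, an enzyme that consumes NAD, by -3.34. Tlr5 moved in opposite directions, with log2 fold changes of -2.06 here and 1.57 in monocyte-derived cells. Hpgds, the prostaglandin D synthase gene, had one of -0.06 here and 3.19 there. Among mitosis genes the difference passed for 19 of 32, all with the larger rise in CD11c-negative macrophages. Of perivascular resident genes 8 of 24 had the lower value here and 0 the higher. The mitosis count became 12 (omitting obese monocyte-derived replicate 2 or obese CD11c-negative replicate 1 or 2). The resident count became 4 (omitting obese monocyte-derived replicate 3 or lean monocyte-derived replicate 1 or lean CD11c-negative replicate 3 and with the compared groups fitted alone), 5 (omitting obese CD11c-negative replicate 2 or 3 or lean monocyte-derived replicate 3 or lean CD11c-negative replicate 1), 15 (omitting lean monocyte-derived replicate 2) and 21 (without the filter). The difference of Mmp9 became -5.32 without lean monocyte-derived replicate 2. The number of genes called was 2447 with DESeq2 and 643 with these 4 groups fitted alone. It was 955 without lean CD11c-negative replicate 1, 718 without lean CD11c-negative replicate 3, 3124 without lean monocyte-derived replicate 2, 829 without obese CD11c-negative replicate 2, 940 without obese CD11c-negative replicate 3 and 944 without obese monocyte-derived replicate 3.

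**Figure D5:**
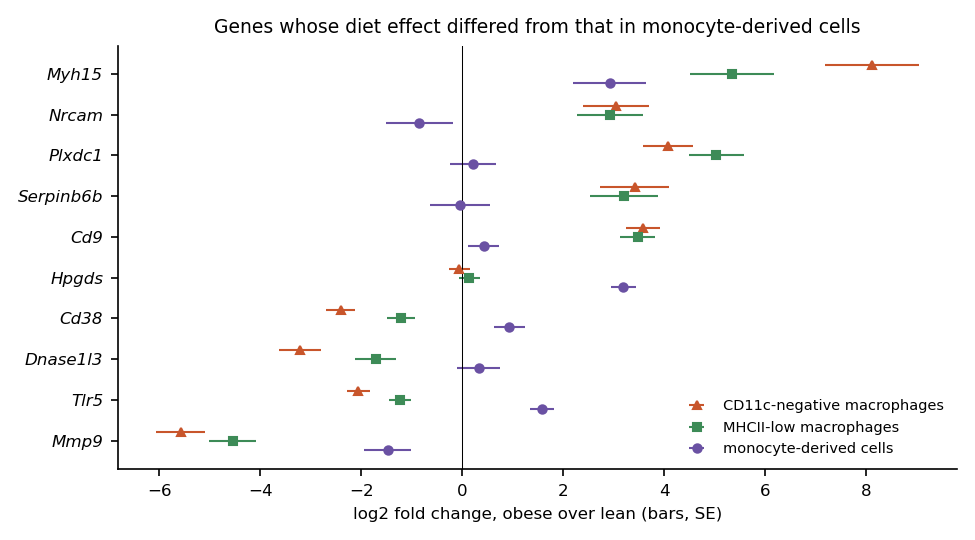
Log2 fold change (obese over lean, bars show the SE) of the 10 genes with the largest tested differences between CD11c-negative macrophages (triangles) and monocyte-derived cells (circles), beside MHCII-low macrophages (squares). Myh15 reached 8.11 in CD11c-negative macrophages, and Hpgds rose in monocyte-derived cells with a log2 fold change of 3.19.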

How the data were processed

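RNA was read from sorted adipose tissue macrophages (PicoPure extraction and a NuGen Ovation kit, per the labels' protocols). The authors deposited 1 table of raw read counts per gene. Per the submitters' processing notes, the tools were Subread 1.4.6-p5 (featureCounts), STAR 2.6.0a, bcl2fastq and Trim Galore 0.4.5, and the build GRCm38; strand setting and multi-mapping are not given in the sources used here. Without a known strand setting, reads of overlapping genes cannot be told apart, which touches Cd9, Mmp12, Hmga2, Pcdh7, Cyp51, Hmgcs1, Nr3c2, Gnptab, Ctsl, Ctsz, Atp6v1h, Ube2c, Mcm7, Pole, Ccna2, Cdk6, Ccnd2, Ndufb5, Hadha, Echs1, Acadvl, Mdh1, Aldoa, Tpi1, Gapdh, Slc2a1, Hk1, Hk3, Selenop, Adam8, Cxcl16, P2ry12, Il1a, Il1b, Tnfaip2, Il4ra, Csf1r, Jund, Jun, Hspa1a, Shmt2, Dnajb9, Rora, Cebpd, Runx1, Fcgr2b, Itgav, Tgm2, Gas6, Cp, Ltc4s, Cd3e and Pdgfra.

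Counts were fitted with edgeR 4.0.16 (TMM, filterByExpr by group, robust quasi-likelihood) over all 7 groups (common dispersion 0.0502, 14 residual degrees of freedom). Adjusted p-values are Benjamini-Hochberg over all 22935 tested genes, and calls had an adjusted p under 0.05. Errors are SD over 3 libraries. CPM of single genes use TMM-scaled library sizes, and sums use library totals. Differences between populations were contrasts of the same fit. The procedure was also run on counts simulated from the means and spread of this fit, which cannot show faults that the fit leaves out. DESeq2 1.42.0, other scalings, no filter, the compared groups alone, a replicate block and leaving out libraries were alternatives. The removal of a length trend was chosen after seeing the data.

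Gene positions, lengths and biotypes are those of GENCODE M21, and promoter windows those of RefSeq. Members and lists were chosen with earlier results of these data known. The largest rises, falls and differences were sought only among called genes without clone-type names such as Gm or Rik. The rule named the 15 largest rises and falls of at least 10 CPM without overlap, up to 4 called genes of at least 10 CPM per list by smallest p, the 5 largest differences each way between populations, and fixed markers. Genes outside it were chosen after their values were seen: Cd36, Dcstamp, Abca1, Nr3c1, Cenpa, Kif23, Cdk1, Ccnb2, Ube2c, Hmmr, Mcm10, Acadvl, Aldoa, Gapdh, Pgk1, Pgam1, Eno1, Pkm, Ldha, Slc2a1, Hk1, Hk2, Hk3, Pfkfb3, Selenop, Igf1, Mrc1, Plau, Ccl9, Cxcl14, Cxcl16, Il1b, Tnf, Vegfa, Il4ra, Rsad2, Ifit1, Isg15, Tlr4, Cd14, Fos, Egr1, Jun, Hsp90aa1, Hspa8, Mitf, H2-Aa, Cd74, C1qa, C1qb, C1qc, Axl, Gas6, Lrp1, Slc40a1 and Hmox1. Some genes that the rule picked are not reported here. All columns of the table belonged to a listed sample.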

Additional observations from a re-analysis of the deposited data

Results flagged for a closer look

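The diet effect differed between CD11c-negative macrophages and monocyte-derived cells for 1459 genes by the test of the difference itself (edgeR, adjusted p under 0.05). The 10 genes with the largest differences under the naming rule were flagged for that reason. Differences are log2 fold changes in CD11c-negative macrophages minus those in monocyte-derived cells. Among the 5 larger in CD11c-negative macrophages, Myh15, a myosin gene, differed by 5.19 (SE 1.24, adjusted p = 0.02199), with log2 fold changes of 8.11 and 2.92. The difference of Myh15 was lost without obese CD11c-negative replicate 2 or 3 or lean monocyte-derived replicate 1 or 3 or lean CD11c-negative replicate 1, 2 or 3 (adjusted p 0.0523 to 0.0789). It became 4.54 without obese monocyte-derived replicate 1. Nrcam, an adhesion molecule gene, differed by 3.89, with 3.04 and -0.85. The difference of Nrcam was lost without obese monocyte-derived replicate 1 or 3 or obese CD11c-negative replicate 2 or 3 or lean CD11c-negative replicate 1, 2 or 3 (adjusted p 0.05001 to 0.0664). Plxdc1 differed by 3.86, with 4.07 and 0.21. Serpinb6b, a protease inhibitor gene, differed by 3.46, with 3.41 and -0.05. The difference of Serpinb6b was lost without obese monocyte-derived replicate 1, 2 or 3 or obese CD11c-negative replicate 2 or 3 or lean monocyte-derived replicate 1 or lean CD11c-negative replicate 1, 2 or 3 (adjusted p 0.0672 to 0.108). It became 2.48 without lean monocyte-derived replicate 1. Cd9 differed by 3.17, with 3.58 and 0.42.

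Among the 5 lower in CD11c-negative macrophages, Mmp9 differed by -4.10 and fell in both populations, by log2 fold changes of -5.58 and -1.48. Tlr5 differed by -3.63 and was called in opposite directions. Cd38 differed by -3.34 and was also called in opposite directions, at -2.41 and 0.93. Dnase1l3 differed by -3.53, with -3.21 and 0.32, the latter without a call. Hpgds differed by -3.25 and had no call in CD11c-negative macrophages.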

How the results depend on the processing

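With another test, scaling, filter, set of groups or the length trend removed, diet calls numbered 6956 to 8319, against 7422, and 45.9% to 55.2% of calls were higher over all settings, leave-outs included. The median log2 fold change of all genes ran from -0.19 to -0.02. Without 1 library at a time, 4493 to 6076 genes passed, 2405 to 3069 higher and 2074 to 3007 lower. The difference from MHCII-low macrophages passed for 8 genes with DESeq2, all 8 lower, for 123 without the filter (30 higher and 93 lower) and for 0 to 2 without 1 library (0 to 2 lower). The difference from monocyte-derived cells passed for 2447 genes with DESeq2 (1066 higher and 1381 lower) and 643 with 4 groups alone (206 and 437). It passed for 1400 lower genes without the filter, and for 718 to 3124 genes without 1 library (153 to 1082 higher and 480 to 2042 lower). The causes were not tested. Of 180 called genes named here, 160 stayed called in all 13 settings. Many of them were picked for a small p or a large change in the same data. Their count therefore does not measure how stable the calls over all genes were. Genes without a call that changed sign were Selenop (-0.23 to 0.06 without 1 library), Hspa8 (-0.21 to 0.07 without 1 library), Cd74 (-0.01 to 0.22 without 1 library and -0.11 with the length trend removed), C1qa (-0.08 with the length trend removed), Pdgfra (-0.80 to 0.09 without 1 library) and Hpgds (-0.17 to 0.11 without 1 library). With the replicate number as a block, 7592 genes passed for diet (3922 higher and 3670 lower), 0 and 1559 for the differences, and 0 named calls were lost, and Igf1 gained one (adjusted p = 0.0335); same-numbered libraries correlated at 0.00449, 0.0132 and -0.248 over 8205 genes and not every library correlated best with its own number, so the numbers were not taken as pairs. Of 6706 genes up to 1 CPM, 61 were called higher and 753 lower at this depth, and the part of depth was not tested.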

Other observations

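Other families of housekeeping genes were put together after their values were seen. Of 77 genes for proteins of the mitochondrial ribosome, which translates the messages of mitochondrial DNA, 45 rose in obese mice and 0 fell (median log2 fold change 0.65). Of 39 proteasome subunits, which degrade tagged proteins, 25 rose and 0 fell (median 0.48). Of 82 genes for proteins of the cytosolic ribosome 54 rose and 0 fell (median 0.55). They summed to 7322, 9586 and 5865 CPM in lean and 10513, 10534 and 11652 CPM in obese libraries. The median exonic length was 2533, 2808 and 1754 bases in the 3 families. With the length trend removed 38, 24 and 44 genes rose, with medians of 0.56, 0.38 and 0.38. The mitochondrial ribosome count became 27 (omitting lean replicate 3) and 28 (omitting obese replicate 3). The proteasome count became 14 (omitting obese replicate 3). The cytosolic ribosome count became 11 (omitting lean replicate 3), 19 (omitting obese replicate 3), 25 (omitting lean replicate 1), 31 (omitting obese replicate 2) and 32 (omitting obese replicate 1). Cytosolic ribosomal proteins have many processed pseudogenes with near-identical sequence, so their counts are uncertain.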
